A study of Mus musculus with 12 samples.

Results

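Lung RNA of irradiated mice was set against lung RNA of vehicle controls in 6 of the 12 arrays of a mouse series, 3 labelled radiation and 3 labelled control. The arrays were assigned by their labels, never by their values. All mice were wild type, and the labels give neither strain nor sex. The irradiated mice had received a single dose of 25 Gy, and their lungs were taken 6 weeks later. The labels put them at 8 to 12 weeks of age, and the vehicle-treated controls at 8 to 10 weeks and 20 to 25 g, so age and treatment cannot be told apart. The other 6 arrays, 3 of simvastatin and 3 of simvastatin with radiation, entered the test through the shared estimate of the spread. The labels do not say that the arrays came from separate animals, and p-values therefore measure the spread between these samples. Lung markers were high on all 6 arrays. Sftpc, the surfactant protein of alveolar type 2 cells, read 15.6 to 15.8 in deposited log2 intensity, and Scgb1a1, the secretory protein of club cells, read 15.8 to 16.2. Other alveolar genes were less even. Sftpb read 12.16 on control 1 and 13.3 to 13.7 on the others, and Ager 14.42 against 15.1 to 15.4. The alveolar type 2 and type 1 lists were lowest on control 1, at -0.75 and -0.97 from their means over the 6 arrays.

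Ionising radiation breaks DNA, and the break response stabilises the transcription factor p53, which switches on genes of growth arrest, repair and cell death. In the lung, a high dose to the chest is followed by a symptom-free interval and then by pneumonitis, with leaking capillaries, clotting and inflammatory cells, and later by fibrosis. Genes of these steps, and of the glucocorticoid response that accompanies stress and illness, are described in that order.

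Cdkn1a was the check of the radiation label. It encodes p21, the kinase inhibitor through which p53 stops the cell cycle. Cdkn1a read 10.25, 10.69 and 13.01 on the control arrays and 13.36, 13.12 and 13.42 on the radiation arrays. The array labelled control 3 was at the radiation level, and only a narrow gap separated the groups. The log2 difference was 1.99, with a two-sided p of 0.1 in the exact permutation test, the smallest that 20 splits can give. Without control 3, the highest control for this gene, the difference was 2.84. Every direction given here rests on the labels as they stand, with the array labelled control 3 among the controls.

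By limma, 0 of 11602 genes passed an adjusted p of 0.05 (0%), and 600 had an unadjusted p under 0.05, which is 5.17%. The lowest adjusted p was 0.751, so no gene named here passed the test, and its values are given as a description. All 3 radiation arrays lay above all 3 control arrays in 564 genes, or 4.86%, and below them in 236 genes, or 2.03%. The radiation mean was the higher one in 60.4% of genes, and the median difference over all genes was 0.08. For 8709 genes, or 75.1%, control 3 was nearer to the radiation mean than to the mean of the other 2 controls. Without control 3 the test passed 1 gene (0.00862%), the diamine oxidase gene Aoc1, and 2466 had an unadjusted p under 0.05. Aoc1 read 5.07, 4.60 and 9.19 in controls and 9.26, 8.84 and 9.14 after radiation. With arrays weighted by their own scatter 1241 genes passed (10.7%), 889 higher and 352 lower. The weights were 3.54 for control 2, 0.30 for control 3 and 0.16 for control 1, so that comparison rested mainly on control 2 among the controls.

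The p53 target genes divided into members that followed Cdkn1a, control 3 included, and members that did not. Of 40 listed, 34 were tested, 30 had the higher mean after radiation, and 6 had no overlap between groups, against 4.86% of all genes. Their median difference was 0.50, beside 0.08 over all genes tested. Members were chosen with results of these data known, and these counts support nothing by themselves. Bax and Gdf15 had no probe set assigned to that gene alone, and 4 further members did not pass the filter on dim probe sets.

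The p53-induced receptor gene Eda2r read 3.54, 3.91 and 7.49 in controls and 8.02, 8.43 and 8.39 after radiation. The difference of 3.30 ± 1.32 (SE, n = 3 a group) was among the 5 largest of the higher genes without overlap, with control 3 again close to the radiation arrays. Ccng1, a cyclin induced by p53, read 12.67, 12.02 and 13.62 against 13.91, 14.04 and 13.54, so that the groups overlapped through control 3. Zmat3, a p53-induced RNA-binding protein, read 9.0, 9.56 and 10.72 against 10.79, 11.15 and 10.90. Its groups did not overlap, by a narrow gap. Phlda3, which restrains Akt signalling, read 9.02, 8.82 and 11.23 against 10.77, 11.13 and 11.25. Aen, a nuclease of p53-driven apoptosis, read 8.01, 7.66 and 10.21 against 9.71, 9.89 and 10.25. In both genes control 3 lay with the radiation arrays and far from the other controls.

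Among killers and repair genes the picture was mixed. Pmaip1, the BH3-only protein Noxa, differed by 1.13 ± 0.52, and Bbc3, the BH3-only protein Puma, by 0.44 ± 0.43. The death receptor gene Fas read 9.88, 10.07 and 9.39 in controls and 10.56, 10.18 and 10.27 after radiation. Here control 3 was the lowest array, and the groups did not overlap. Polk, a polymerase that copies past damaged bases, read 9.14, 9.14 and 9.37 against 9.65, 9.76 and 9.94, a difference of 0.57 ± 0.20. Control 3 was again the highest control, but it lay nearer to the other controls than to the radiation mean. Sesn2, a stress sensor that restrains mTORC1, differed by 0.88 ± 0.36 without overlap. Mdm2, the ligase that returns p53 to low levels, differed by 0.07 ± 0.33, and its sign turned when control 1, control 2 or radiation 3 was left out. Perp, Ddb2 and Btg2 had lower means after radiation, by 1.11 ± 0.68 in the case of Perp, a desmosome protein that squamous epithelium also makes.

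**Figure D1:**
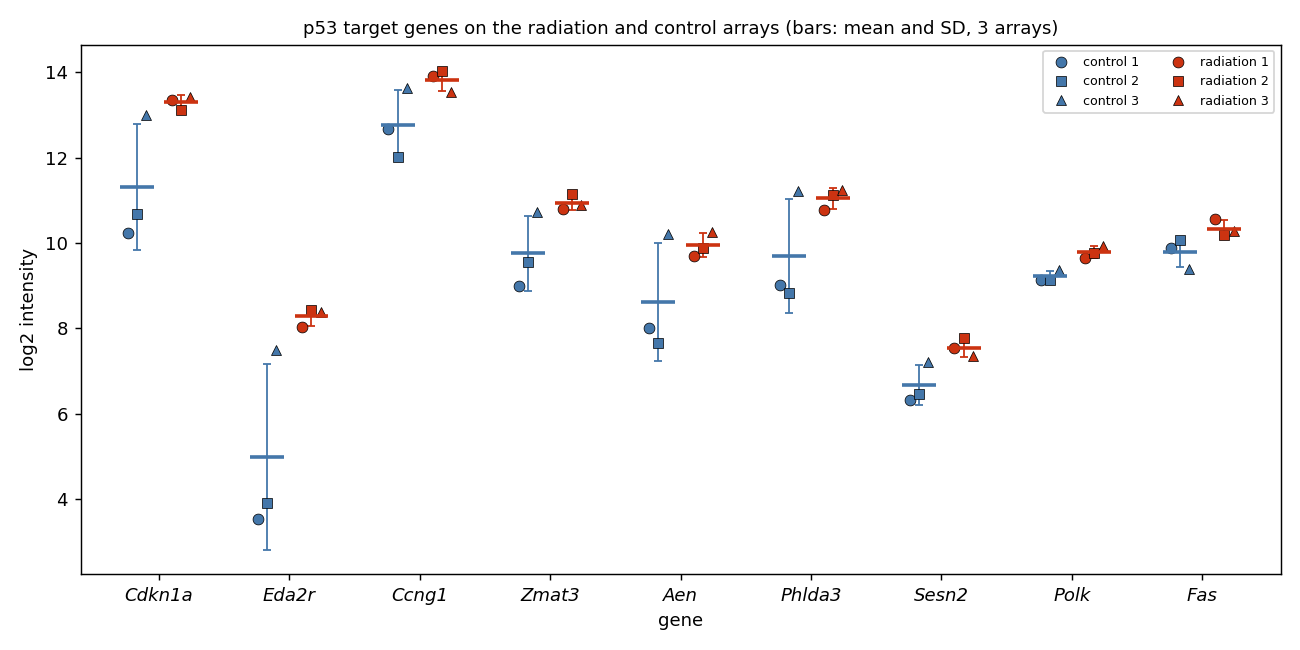
Log2 intensity of 9 p53 target genes on the 3 control arrays (blue) and 3 radiation arrays (red); symbols mark the replicate number, horizontal bars the group mean and whiskers the SD. The blue triangle, control 3, lies beside the radiation arrays for Cdkn1a, Eda2r, Ccng1, Zmat3, Aen and Phlda3, and below both other controls for Fas.

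Control 3 was singled out by its reading of Cdkn1a, which is on the p53 list. Leaving it out therefore raises the values of that list by construction, and they support nothing by themselves. Without control 3, all 3 radiation arrays lay above the other 2 controls in 19 of the 34 tested p53 targets, where 25.8% of all genes did so, and below them in 2, where 9.14% did. Lists of other cell types were as far from those shares at this setting or farther. Ciliated cell genes were higher in 16 of 18, squamous genes lower in 15 of 17 and skeletal muscle genes lower in 11 of 18, and their part in the p53 count was not tested. The median difference of the p53 targets was then 0.70, and it was 0.38 without control 1. DNA damage and repair genes, which sense and mend the breaks, had a lower mean in 13 of 18. Their median of -0.20 became 0.07 when each array was centred on its median, which moved the median of all genes from 0.08 to 0.36. Mre11a and Rad50, which form the break-sensing complex with Nbn, read lower on all 3 radiation arrays, by 0.67 ± 0.32 in Mre11a and 0.12 ± 0.21 in Rad50. The gaps between the groups were only 0.006 and 0.007. Nbn itself went the other way, by 0.32 ± 0.22, and its groups overlapped. The median of this list was 0.01 without control 1. Of 13 senescence-associated genes 9 had the higher mean, beside 60.4% of all genes, and 0 had separate groups, beside 4.86% upward and 2.03% downward. Mmp12, the macrophage elastase, read 3.51, 5.47 and 6.86 in controls and 7.68, 8.16 and 6.77 after radiation, with control 3 inside the radiation range.

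Glucocorticoid-induced genes made up the list with the largest share of separated members. All 20 listed genes were tested, 20 had the higher mean after radiation, and 10 had groups that did not overlap, beside 4.86% of all genes. The median difference was 1.14, and it stayed between 0.98 and 1.28 when each array was left out in turn. This list too was chosen with results of these data known, and its counts support nothing by themselves. Its members Tsc22d3, Fam107a and Map3k6 are among the 15 higher genes of lowest p. Control 3 was nearer to the radiation mean than to the other controls in 9 of the 20, against 75.1% of all genes and 28 of 34 p53 targets.

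The promoter windows of 4 of these genes are shown because they hold the 9-letter core of the inverted repeat that glucocorticoid receptor sites are built on. The pattern ACANNNTGT reads the same on both strands and is in capitals. Sequences are RefSeq, GRCm38.p6, the 250 bases before a start in the direction of transcription. They lie at chr14:8309778-8310027 (minus strand) for Fam107a, chr4:133240568-133240817 (plus) for Map3k6, chr10:21978422-21978671 (plus) for Sgk1 and chr8:94178839-94179088 (plus) for Mt1. The matches begin 118, 179, 127 and 92 bases before the start, and a gene can have other starts.
Fam107a: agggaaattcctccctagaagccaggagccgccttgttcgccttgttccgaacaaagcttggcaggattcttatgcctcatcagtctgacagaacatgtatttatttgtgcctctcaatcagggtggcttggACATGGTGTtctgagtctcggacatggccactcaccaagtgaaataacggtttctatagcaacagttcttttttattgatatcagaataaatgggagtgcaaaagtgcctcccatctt
Map3k6: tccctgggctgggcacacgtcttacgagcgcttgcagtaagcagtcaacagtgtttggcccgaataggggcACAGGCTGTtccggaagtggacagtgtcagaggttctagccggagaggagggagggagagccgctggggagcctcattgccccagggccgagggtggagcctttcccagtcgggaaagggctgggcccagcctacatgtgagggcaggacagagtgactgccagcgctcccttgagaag
Sgk1: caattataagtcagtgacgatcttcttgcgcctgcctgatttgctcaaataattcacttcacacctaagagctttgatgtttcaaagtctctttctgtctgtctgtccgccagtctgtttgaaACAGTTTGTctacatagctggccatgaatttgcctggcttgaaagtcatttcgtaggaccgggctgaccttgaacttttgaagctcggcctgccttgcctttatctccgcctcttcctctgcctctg
Mt1: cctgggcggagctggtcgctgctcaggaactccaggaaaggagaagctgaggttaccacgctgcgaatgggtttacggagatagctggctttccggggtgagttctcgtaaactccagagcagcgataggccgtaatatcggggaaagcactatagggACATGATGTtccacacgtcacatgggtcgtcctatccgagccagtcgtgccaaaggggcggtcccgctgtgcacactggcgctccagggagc
Of 17 listed genes with a window of 300 bases 5 held the pattern, those shown and Lcn2, and 7.9% of 27025 genes did. Of 31 p53 targets with a window 1 did. This pattern was chosen after the matches were seen, from a wider search of both lists. Longer patterns of the full receptor repeat and of paired p53 site arms were searched first, and their matches are not given here. The search kept 7 short patterns. Beside the one shown they were the receptor hexamer AGAACA, the E-box CACGTG, the cyclic AMP element TGACGTCA with its variant TGACGTAA, the C/EBP palindrome TTGCGCAA and the metal element core TGCNCNC, each on both strands. The hexamer, which can overlap the 9-letter core, stood in 4 of the 17 genes and in 21.3% of all genes. The E-box, which is no receptor pattern, stood in 4 of these 17 genes and in 8 of the 31 p53 targets, beside 8.09% of all genes. The metal element core stood in 14 of the 17 genes, beside 53.6% of all genes, and TGACGTCA in 2, beside 2.03%. TGACGTAA and TTGCGCAA stood in 0 of the 17. The receptor core was thus not alone in exceeding its share. A match describes letters, not bound protein, and no match says only that these letters are not in the window.

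Fam107a, an actin-bundling protein induced by steroids and stress, read 7.37, 8.08 and 10.25 in controls and 12.90, 12.60 and 10.89 after radiation. The difference of 3.56 ± 0.79 was the largest of any gene without overlap, and control 3 and radiation 3 stood nearest to each other. Map3k6, a stress-activated kinase, read 6.40, 7.70 and 7.73 against 10.22, 9.42 and 9.76. All radiation arrays were well above all controls, and control 3 was beside control 2. Sgk1, a steroid-induced kinase that regulates sodium channels, read 12.97, 13.48 and 13.26 against 14.10, 13.60 and 13.84. Its groups were separate by a narrow gap between control 2 and radiation 2. Mt1, a zinc-binding metallothionein, read 10.69, 10.79 and 11.69 against 12.01, 12.23 and 11.91, and Mt2 read 10.92, 10.90 and 11.03 against 12.15, 12.30 and 12.10.

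Tsc22d3 encodes GILZ, the leucine zipper through which glucocorticoids quiet inflammation. It read 10.29, 11.45 and 10.93 in controls and 12.68, 12.77 and 12.50 after radiation, with all radiation arrays close together and control 3 between the other controls. The difference was 1.76 ± 0.34, or 3.39-fold, and its second probe set went the same way. Klf15, a steroid-responsive factor of amino acid breakdown that was not on the list, read 8.38, 9.53 and 10.27 against 11.40, 10.96 and 10.94. Cebpd, a factor of the acute phase, read 10.03, 11.89 and 11.87 against 12.77, 12.57 and 13.38. Zbtb16, a steroid-induced repressor, read 6.27, 7.89 and 11.50 against 12.08, 11.62 and 11.48. Its difference of 3.18 ± 1.37 was large, but control 3 stood with the radiation arrays. Fkbp5, the chaperone that dampens the receptor, read 11.77, 7.81 and 9.83 against 12.01, 11.75 and 10.10, with control 1 inside the radiation range.

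**Figure D2:**
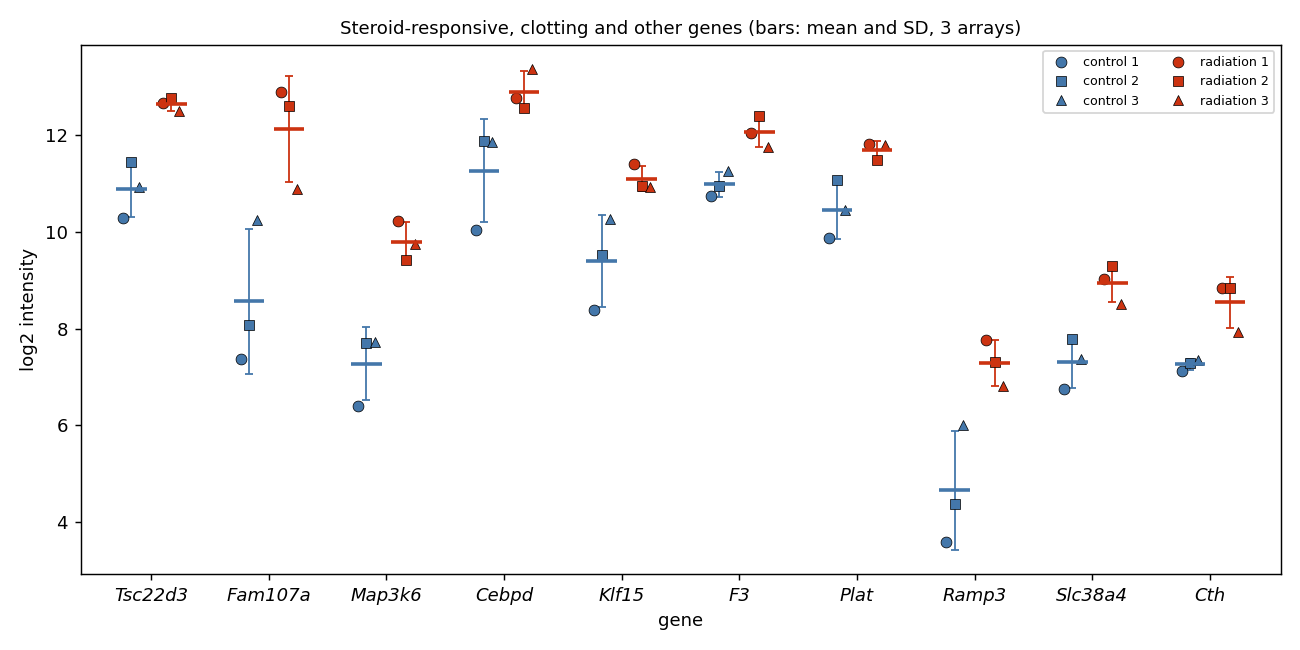
Log2 intensity of 10 genes induced by steroids, of clotting and of other roles on the control (blue) and radiation (red) arrays; symbols mark the replicate number, horizontal bars the mean and whiskers the SD. The groups are separate for every gene plotted; control 3 (triangle) lies between the other controls for Tsc22d3, Plat and Slc38a4 and highest of the controls for Fam107a and Ramp3.

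Genes of clotting were mostly higher after radiation, as far as the means go. Of 21 listed 16 were tested, 15 had the higher mean and 4 had separate groups, again beside 4.86% of all genes. The median difference was 0.70, and 0.38 without control 1. F3, tissue factor, which starts coagulation, read 10.75, 10.96 and 11.26 in controls and 12.05, 12.41 and 11.76 after radiation. The spread within each group was small, and control 3 was the highest control. Tfpi, its inhibitor, read 8.66, 9.71 and 9.69 against 9.83, 10.03 and 9.83, where the low control 1 gave most of the difference. On the fibrinolytic side, Plat, tissue plasminogen activator, read 9.87, 11.08 and 10.45 against 11.83, 11.48 and 11.79, a difference of 1.23 ± 0.33. Plaur, the urokinase receptor, differed by 1.21 ± 0.55 without overlap. Vwf, the endothelial protein that tethers platelets, differed by 0.79 ± 0.29, and both groups overlapped. Procr, the endothelial protein C receptor, read 8.21, 7.57 and 9.34 against 9.28, 9.5 and 9.34, with control 3 inside the radiation range.

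Endothelial and barrier genes had the higher mean in 23 of 28 tested, with 4 separate upward and 1 downward, beside 4.86% and 2.03% of all genes. The median of 0.41 became 0.02 without control 1, the array with the lowest mean of this list. Junction genes such as Cdh5 and Cldn5 had overlapping groups. Nos3, the endothelial nitric oxide synthase, read 7.15, 8.09 and 8.42 against 8.51, 8.49 and 9.61. The gap between control 3 and radiation 2 was small. Selp, the P-selectin that catches leukocytes, read 6.61, 6.34 and 7.12 against 7.63, 7.14 and 7.83. Edn1, the constrictor endothelin, differed by 0.52 ± 0.22 and the adhesion molecule gene Icam1 by 0.54 ± 0.32. Aplnr, the apelin receptor, went the other way, with 11.47, 13.20 and 10.35 in controls and 9.07, 9.80 and 10.23 after radiation.

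The 15 higher genes of lowest p held further single genes, which belong to no list used here. Ramp3, the partner that makes the calcitonin receptor-like protein an adrenomedullin receptor, read 3.59, 4.37 and 6.01 in controls and 7.77, 7.31 and 6.82 after radiation. Vegfc, the lymphatic growth factor, read 9.23, 10.60 and 10.38 against 11.82, 11.58 and 11.17. Ackr3, a scavenger receptor for Cxcl12, read 10.82, 11.25 and 11.71 against 12.16, 12.47 and 12.76. In each of them control 1 was the lowest array. Rgcc, a cell cycle regulator induced by complement, read 13.55, 12.88 and 13.42 against 14.51, 14.64 and 13.89. Tinagl1, a basement membrane protein, differed by 1.53 ± 0.33. Outside these 15, the 5 largest higher differences without overlap included the immunoglobulin gene Ighg3 and Maff. Ighg3 read 5.99, 4.40 and 6.02 against 7.67, 7.86 and 10.17, and Maff 3.59, 6.99 and 7.96 against 8.89, 8.52 and 9.13.

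Sphingolipid genes matter to the lung barrier because sphingosine 1-phosphate tightens endothelial junctions, while ceramide promotes cell death after radiation. Of 26 tested 20 had the higher mean, beside 60.4% of all genes. The groups were separate in 3, beside 4.86%, and the median was 0.18. Sphk1, the kinase that makes sphingosine 1-phosphate, read 6.18, 7.76 and 8.03 in controls and 9.63, 8.23 and 8.82 after radiation. Its receptor gene S1pr1 read 9.93, 11.43 and 9.56 against a radiation mean of 11.28 ± 0.24 (SD, n = 3), and the groups overlapped. The sphingomyelin synthase genes Sgms1 and Sgms2, whose enzymes consume ceramide, differed by 0.95 ± 0.26 and 1.13 ± 0.35. Sgms1 read 11.12, 12.04 and 12.27 against 12.74, 12.76 and 12.78, and 2 of its 3 other probe sets went the same way.

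Of 26 tested genes of fibrosis signalling and crosslinking 15 had the higher mean, a share no higher than the 60.4% of all genes. In 4 the groups were separate upward and in 2 downward, beside 4.86% and 2.03%. Lox, the lysyl oxidase that crosslinks collagen and elastin, read 9.26, 9.96 and 10.87 in controls and 13.12, 11.36 and 11.55 after radiation, with radiation 1 highest. The difference was 1.98 ± 0.50. Ccn2, the connective tissue growth factor, read 12.14, 13.29 and 13.17 against 13.67, 14.17 and 13.81. Timp3, an inhibitor of matrix proteases, differed by 0.78 ± 0.26 and Inhba, the activin A subunit, by 0.83 ± 0.40. Tgfb1 read 9.54, 9.51 and 9.54 against 9.36, 9.26 and 9.48, lower on every radiation array but by 0.16 ± 0.33 at the fit's SE. Acta2, the smooth muscle actin of myofibroblasts and vessel walls, differed by -0.39 ± 0.29.

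Matrix proteins had the lower mean in 14 of 24 tested, with a median of -0.16, or 0.11 with arrays centred, where that of all genes was 0.36. Without radiation 1, the array lowest for this list, the median was 0.09. Col1a1 read 10.58, 11.38 and 11.01 in controls and 9.56, 10.87 and 10.69 after radiation. Lum, the collagen-binding lumican, read 10.53, 9.44 and 8.67 against 6.63, 8.78 and 6.91, a difference of -2.11 ± 0.79. Dcn, decorin, was lower on all radiation arrays, by 0.64 ± 0.34, and Col4a2 of the basement membrane was higher on all of them, by 0.54 ± 0.28.

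Amino acid genes gave 2 of the 5 lowest p values of the comparison. Slc38a4, a transporter of neutral amino acids, read 6.74, 7.79 and 7.38 in controls and 9.03, 9.29 and 8.51 after radiation. Cth, which makes cysteine from cystathionine, read 7.13, 7.30 and 7.36 against 8.85, 8.84 and 7.94. The controls of Cth were close together, control 3 included, while those of Slc38a4 spread more widely than its radiation arrays. In the whole list 11 of 16 had the higher mean, near the 60.4% of all genes. In 3 the groups were separate upward, beside 4.86%, and the median was 0.26. Mbd1, a reader of methylated DNA, had the lowest p of all genes. It read 10.47, 10.63 and 10.50 in controls and 11.39, 11.39 and 11.69 after radiation, a difference of 0.96 ± 0.16, and its 3 other probe sets went the same way.

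Inflammatory mediators differed little as a list. The higher mean was found in 14 of 22, beside 60.4% of all genes, with 1 separate upward, beside 4.86%, and a median of 0.19. Ccl6, a macrophage chemokine, read 11.36, 12.70 and 13.08 in controls and 13.53, 13.74 and 13.20 after radiation. Ccl9 read 9.18, 9.25 and 11.24 against 11.75, 10.73 and 10.90, with control 3 inside the radiation range. Of 18 macrophage genes 13 had the higher mean and 2 were separate, beside 4.86%. Mrc1, the mannose receptor, differed by 0.67 ± 0.26 and Mertk, the receptor that clears dying cells, by 0.69 ± 0.30. Complement genes had the higher mean in 13 of 14, beside 60.4% of all genes, with 0 separate, beside 4.86% upward. In whole lung, more cells of a type and more RNA in each cell cannot be told apart.

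Neutrophil genes had the higher mean in 10 of 10 tested, beside 60.4% of all genes, with 0 separate, beside 4.86% upward. S100a8, a calcium-binding protein that fills neutrophils, read 11.24, 12.32 and 14.47 in controls and 15.69, 10.99 and 14.32 after radiation. The mean of the list was 11.2 on radiation 1 and between 6.54 and 8.82 on the other 5 arrays, and the list's median fell from 0.98 to 0.19 without radiation 1. Ciliated cell genes had the higher mean in 17 of 18, beside 60.4% of all genes. Foxj1, the master factor of motile cilia, read 6.92, 8.29 and 10.09 in controls and 9.33, 9.49 and 9.75 after radiation. Control 3 stood nearer to the radiation mean in 18 of 18 of these genes, beside 75.1% of all genes. None was separate, beside 4.86% upward and 2.03% downward.

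Antigen presentation leaned the other way. All 9 tested MHC class II genes had the lower mean after radiation, with a median of -0.27 (0.002 with arrays centred), and 1 of them, H2-DMb2, was separate, beside 2.03% of all genes. Without radiation 1 the median was 0.03. H2-DMb2, which helps load peptides, read 9.85, 9.41 and 9.36 in controls and 7.73, 9.03 and 9.13 after radiation. Interferon-stimulated genes had the lower mean in 15 of 21, while 60.4% of all genes had the higher one. In 2 of the 21 the groups were separate downward, beside 2.03%. The median of this list was -0.25 and turned to 0.025 with arrays centred. Centring shifts every gene alike and moved the median of all genes from 0.08 to 0.36, so both lists stayed below it by arithmetic. Psmb9, a subunit of the immunoproteasome, read 10.73, 10.42 and 10.32 against 9.31, 9.65 and 10.15.

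Single genes with lower readings after radiation included regulators measured by several probe sets. Malat1, an abundant nuclear non-coding RNA, read 15.64, 15.63 and 15.13 in controls and 14.33, 14.01 and 14.94 after radiation, and its 6 other probe sets went the same way. Mef2c, a factor of endothelial, muscle and lymphoid cells, had a control mean of 10.80 ± 0.26 (SD, n = 3) against 9.98, 10.26 and 9.81, and its 4 other probe sets were lower too. Egr1, an immediate early factor, read 12.49, 13.58 and 11.85 against 10.57, 11.43 and 11.53, a difference of -1.46 ± 0.45. In Malat1 and Egr1 control 3 was the lowest control. Rgs2, which shortens G protein signals, differed by -0.60 ± 0.16. Cdkn2c, a CDK4 and CDK6 inhibitor, differed by -0.85 ± 0.28. Srcap, the remodeller that places histone H2A.Z, read 7.04, 6.39 and 5.72 against 4.65, 4.11 and 5.30, a difference of -1.69 ± 0.41. Its readings on radiation 1 and radiation 2 lay below 4.85, the level used to filter dim probe sets.

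**Figure D3:**
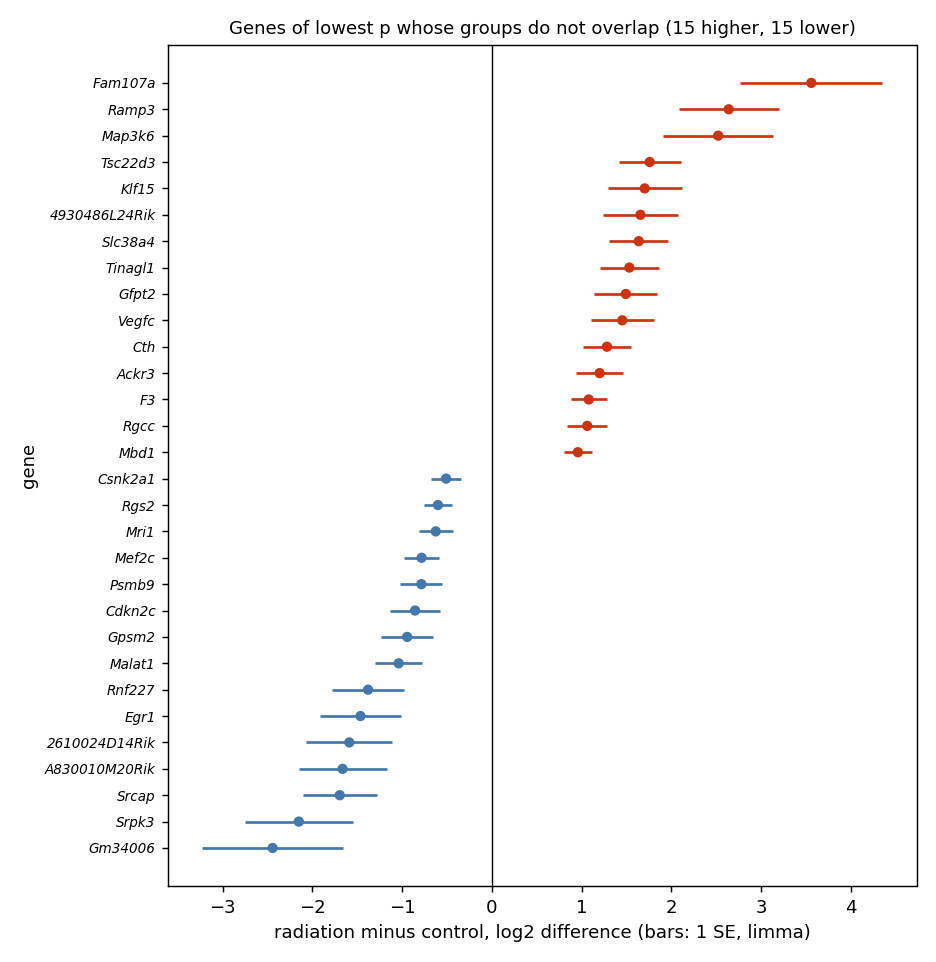
Log2 difference, radiation minus control, of the 15 higher (red) and 15 lower (blue) genes of lowest limma p among those whose groups do not overlap; bars are 1 SE and the vertical line marks 0. Fam107a stands highest at 3.56 and Gm34006 lowest at -2.44; none of the 30 passed the adjusted p of 0.05.

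The 5 largest lower differences without overlap belonged to Bcl11b, Endou, Gm34006, Satb1 and Kif21b, each of which read highest on control 1. Bcl11b, a factor of T cell identity, read 13.65, 7.82 and 7.82 in controls and 6.32, 6.68 and 7.14 after radiation. Satb1, a chromatin organiser of thymocytes, read 14.65, 9.77 and 9.19 against 8.51, 8.73 and 9.15. Rag1, the recombinase of immature lymphocytes, read 14.4 on control 1 and 2.09 to 2.33 on the other 5 arrays. T and NK cell genes had a median of -1.66, and of -0.23 without control 1. All 22 tested cell cycle genes had the lower mean, with a median of -1.26, and 0 had separate groups, beside 2.03% of all genes downward. Without control 1 that median was 0.03. Markers of thymocytes and the cell cycle list thus moved with 1 control array. Their part in other differences was not tested beyond leaving that array out.

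Markers of neighbouring tissues differed between arrays of a group too. Squamous genes had a median of -2.63, with Krt4, a keratin of the oesophagus, at 15.19, 15.18 and 8.17 in controls and 13.05, 3.07 and 2.75 after radiation. Skeletal muscle genes had a median of -2.20, and of -0.38 without radiation 3, where muscle actin Acta1 read 5.39 against 12.8 to 14.4 on the other 5. Ucp1, the uncoupling protein of brown fat, was at 12.9 on control 1, 12.3 on control 3 and 8.74 on radiation 2, and at 2.20 to 2.26 on the others. The Y-linked gene Eif2s3y read 10.2 on control 3 and 10.4 on radiation 1, and 2.75 to 3.46 on the other 4. With both of these arrays left out, 1 gene passed the test, and 19 of 34 p53 targets and 13 of 20 glucocorticoid-induced genes were higher on every remaining radiation array, where 28.9% of all genes were. On the same 4 arrays, ciliated cell genes were higher after radiation in 16 of 18, squamous genes lower in 16 of 17 and skeletal muscle genes lower in 16 of 18, where 11.2% of all genes were lower.

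**Figure D4:**
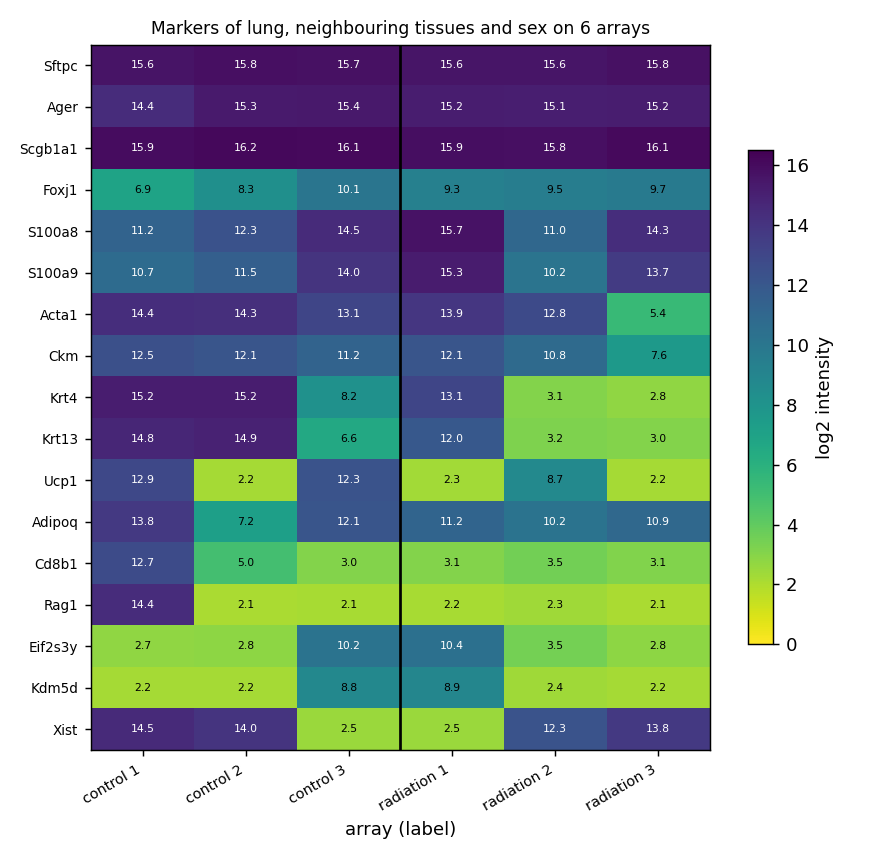
Log2 intensity of 17 markers of lung cells, neighbouring tissues, lymphocytes and sex on the 3 control and 3 radiation arrays, with the value in each cell. Sftpc, Ager and Scgb1a1 are high on all 6 arrays, while Krt4, Ucp1, Rag1, Acta1 and Eif2s3y differ between arrays of the same group.

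Likeness between whole arrays did not follow the labels. Over 10342 probe sets with a mean above 9, the SD of log2 differences was 0.43 between control 3 and radiation 1 and 0.46 between control 3 and radiation 2. It was 0.72 between control 3 and control 2 and 0.97 between control 3 and control 1. The closest pair of the 6 was radiation 1 with radiation 2, at 0.38, and radiation 3 was nearer to control 2, at 0.50, than to either, at 0.61 and 0.68.

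**Figure D5:**
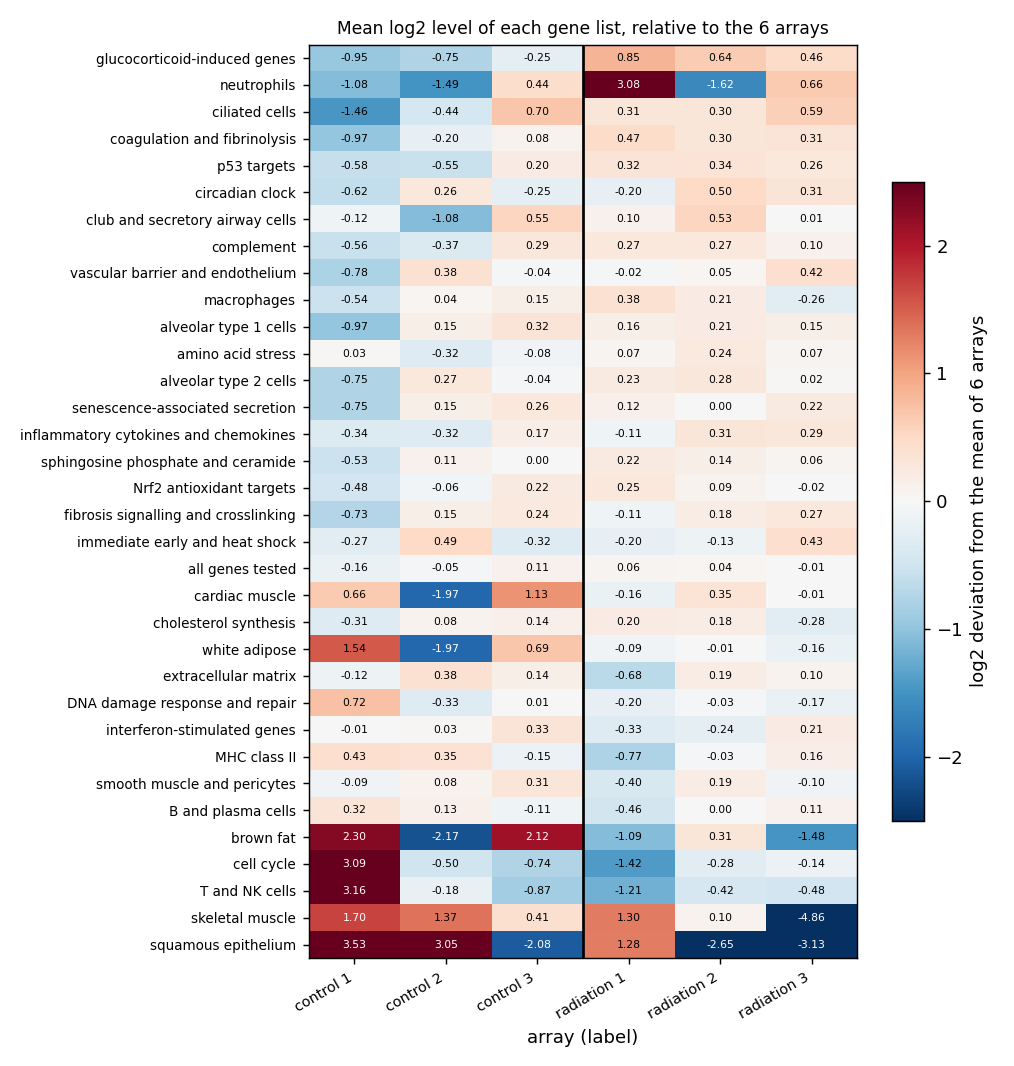
Mean log2 level of each gene list's tested members on each array, as the deviation from that list's mean over the 6 arrays, ordered by the list's median difference; red is above and blue below. The glucocorticoid-induced list is above its mean on all radiation arrays and below it on all controls, and the p53 list is at 0.20 on control 3 beside 0.26 to 0.34 on the radiation arrays.

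The simvastatin groups gave a comparison that shares no array with this one. In simvastatin with radiation minus simvastatin, 10 of the 15 higher genes again had the higher mean, with a median of 0.09, and 49.1% of all genes did. Of the 15 lower genes 8 had the lower mean, with a median of -0.06, and 50.9% of all genes did. The p53 targets had a median of -0.03 there and the glucocorticoid-induced genes one of 0.07. In these groups too, the check gene read at the level of the other label on some arrays, for a reason that was not tested. Cdkn1a read 11.09, 13.36 and 11.11 on the arrays labelled simvastatin and 13.19, 13.17 and 11.18 on those labelled simvastatin with radiation. Simvastatin 2 was thus at the level of the radiation arrays, and simvastatin with radiation 3 was beside simvastatin 1 and 3. Eda2r read 4.15, 8.28 and 4.75 against 7.67, 7.75 and 4.33, with the same arrays at the level of the other label. Simvastatin 1 and 3 were near-identical and averaged, and simvastatin with radiation 3 was near-identical to both. The medians of this comparison are therefore no repeat of the one without simvastatin.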

How the data were processed

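RNA of 12 mouse lung samples was hybridised to Affymetrix arrays. The deposited values are log2 intensities, and the submitters' processing notes name MAS5 and GCRMA. Which of them made these values, and with what version, is not given in the sources used here. Without 64 control probes, the 45101 probe sets comprised 34945 with a single gene symbol in the platform annotation, 932 with several and 9160 with none. Array medians lay between 4.42 and 5.12. Probe sets that exceeded 4.85, the overall median, on 3 or more arrays were tested, and each gene was represented by its brightest one. The fit used lmFit and eBayes (limma 3.58.1, R 4.3.3) with a variance trend and 1 mean for each of 4 groups. It held 11 samples, since a near-identical simvastatin pair was averaged. P-values are two-sided and adjusted by Benjamini and Hochberg over 11602 genes. The number of arrays limits the precision. Promoter windows were searched for 7 short letter patterns and for longer ones that are not given here. The scripts were tested on simulated data. For the fit, the pass mark applied to a small spread equal for all genes, and recovery at the spread of these data is not given here.

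Named genes were drawn from the 15 higher and 15 lower of lowest p whose groups do not overlap, and from the 5 largest in each direction. They also came from up to 4 such members of each list and direction, otherwise the 2 of lowest p, and the check genes. Not every gene that meets this rule is described. Another 34 genes were chosen after their values were seen, together with genes of the marker plot. The comparison, members and lists were chosen with earlier results of these data known. All 12 arrays carry 1 description that calls the tissue control, and it was not used.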

Additional observations from a re-analysis of the deposited data

How the results depend on the processing

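The count of genes that passed limma's test was 0 under 17 of 20 alternatives. It was 1241 with array weights and 1 without control 3 and radiation 1. Leaving out each array in turn gave counts from 0 to 1. Of 106 named genes other than Cdkn1a, 103 kept their direction under every alternative run. Many were chosen because their groups do not overlap, and leaving out an array cannot turn the sign of such a gene. Alternatives that change only the spread cannot turn it either, so this count was largely fixed by the choice of genes. With each array left out in turn, Mdm2 ran from -0.12 to 0.35, and was -0.0446 without radiation 3 and -0.00545 without control 1. Without radiation 1, S100a8 was -0.0166 and S100a9 -0.15, and their highest values were 2.33 and 2.40, without radiation 2. With array weights 60 of these genes passed, beside 10.7% of all genes. They were chosen from this same comparison, so that excess supports nothing by itself. The weighted fit rested mainly on control 2 among the controls. After median centring the all-gene median was 0.36 in place of 0.08. The medians of the repair, matrix, interferon, MHC class II and white adipose lists turned positive with it. Centring shifts the difference of every gene alike, so each list's distance to the median of all genes was fixed in advance. Replicate numbers did not pair the arrays. Same-numbered control and radiation arrays had correlations of deviations of -0.002, -0.21 and -0.106, and the fit with a replicate block passed 0 genes, with 922 at an unadjusted p under 0.05 and a lowest adjusted p of 0.585. The alternatives for counts of separate groups were added after the data were seen. Probe sets near the floor of the scale bound small differences only loosely.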
